A study of Mus musculus with 16 samples.

Results

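The set described here is 33 mouse genes whose human counterparts are known for intellectual disability or autism, read through the histone mark H3K4me3 in the hippocampus. Its members are the H3K4me3 regions that lay inside one of the 33 genes or within 2 kb of either end of it, on mm10 coordinates as the deposited files give them. The rule found 160 of the 35996 regions of the series, and every gene had at least 1. For each gene the region with the most counts was taken as its main promoter region, which gave 32 regions because Nlgn3 and Med12 share theirs. A further 18 regions lay at a gene end and 110 were internal, meaning inside a gene and away from both ends. Exon and intron boundaries were not used here. Internal does not mean away from every promoter, since 6 internal regions hold a listed start site of their own gene. For Tcf4, Shank2 and Auts2 no start site was listed, so promoters inside these genes could not be told from other internal regions.

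H3K4me3 was measured by chromatin immunoprecipitation and sequencing in 12 libraries, 2 for each of 6 groups, all from adult male mice aged 2 to 4 months, and each library pooled the hippocampi of 2 mice. Wild-type (WT) and Kdm5c knockout (KO) mice on a mixed F1 C57/129 background were taken under standard conditions or after novelty, which was 1 h in a box with tubing and toys. The ifKO line, a Kdm5c mutant whose construction the labels do not describe, and its controls (ifWT) were on a pure C57BL/6J background and in basal state. KO and ifKO therefore differ in strain background as well as in the mutation, and these cannot be told apart. The hippocampus holds many cell types, so a lower mark per cell and a smaller share of marked cells cannot be told apart. H3K4me1 and Kdm5C itself were measured in 1 WT and 1 KO library each, on the C57BL/6J background.

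H3K4me3 is a mark of active promoters, laid down by methyltransferases of the Set1 and MLL families and removed by demethylases of the Kdm5 family. Kdm5c is the X-linked member of that family, and its loss in people is a known cause of X-linked intellectual disability. The 33 genes themselves act at different points of the same neurons. Some encode scaffolds and adhesion proteins of the synapse, many encode chromatin regulators, and others encode transcription factors, RNA-binding proteins, ubiquitin ligases and signalling proteins.

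Counts over all regions totalled between 18181192 and 30435735 per library. Levels are given in CPM, counts scaled to a common library size with trimmed-mean factors (TMM), and 3 counts correspond to 0.0986 to 0.165 CPM. A region is said to have risen, fallen or been called when its Benjamini-Hochberg adjusted p over all 35955 tested regions was under 0.05 in edgeR's quasi-likelihood test, and changes are log2 values with their standard errors (SE). All but 1 of the 160 member regions passed the filter on low counts. The Kdm5c promoter region itself (chrX:152232907-152234889) stayed marked in KO, with 60.8 and 60.3 CPM against 66.6 and 72.2 CPM in WT under standard conditions (log2 change -0.20, adjusted p = 0.0474 in edgeR), so it does not by itself check the genotype. The main regions of 9 pyramidal and granule neuron markers had means over the 12 libraries of 33.2 to 172 CPM, highest at Camk2a. Those of 5 interneuron markers had 1.59 to 38.3 CPM, and Vip had no region. Of 4 liver markers, Alb, Cyp7a1 and Serpina1a had no region, and Apoa1 had one of 14.3 CPM that rose in KO on the average (0.44 ± 0.079, adjusted p = 6.25e-05 in edgeR) and in ifKO (0.41 ± 0.12, adjusted p = 0.0315).

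Not all hippocampal markers were level between KO and WT. In KO on the average over both conditions, 9.56% of the main regions of all protein-coding genes rose and 30.4% fell. Of 9 pyramidal and granule neuron markers, 2 rose and 3 fell. Among them, Prox1 and C1ql2, both known from dentate granule cells, fell by 0.36 and 0.41 on the log2 scale, and Neurod6, known from pyramidal cells, rose by 0.35 (adjusted p = 9.14e-06, 6.45e-06 and 6.21e-06 in edgeR). The other called markers of this list are not named here, so no pattern by neuron type can be read from these 3. The 9 markers summed to 679.6 CPM in WT and 666.3 CPM in KO under standard conditions. Of 5 interneuron markers with a region 1 fell (Gad1), of 5 astrocyte markers 2 rose (Gfap and Aqp4), of 5 microglia markers 1 rose, of 6 oligodendrocyte markers 1 fell and of 5 vascular markers 2 fell. In ifKO, 2.56% of the main regions of all protein-coding genes rose and 2.22% fell. Of the 9 neuron markers 1 was called there, Camk2a, with a log2 change of 1.02 (adjusted p = 3.17e-13 in edgeR). The part of these shifts in the results on the 33 genes was not tested.

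Promoter sequences from RefSeq (GRCm38.p6) could be matched to the main region of 23 of the 33 genes. Each window holds the 250 bases before a listed start site, written 5′ to 3′ in lower case with every CG dinucleotide in capitals, since promoters rich in CG are the ones that typically carry H3K4me3. The first 4 are promoters whose main region fell in KO (Tsc1, Ep300, Crebbp, Fmr1), Hdac4 is the one whose main region fell in ifKO, and Pak3 had the lowest level of all 33. The Hdac4 window lies just beside its called region (chr1:92178666-92180340) and not inside it.
Tsc1, chr2:28640983-28641232, plus strand: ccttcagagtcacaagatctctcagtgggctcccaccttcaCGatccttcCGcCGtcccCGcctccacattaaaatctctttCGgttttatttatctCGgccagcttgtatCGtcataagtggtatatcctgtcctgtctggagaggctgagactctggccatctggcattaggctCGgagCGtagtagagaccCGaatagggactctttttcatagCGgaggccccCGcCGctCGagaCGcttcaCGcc
Ep300, chr15:81585964-81586213, plus strand: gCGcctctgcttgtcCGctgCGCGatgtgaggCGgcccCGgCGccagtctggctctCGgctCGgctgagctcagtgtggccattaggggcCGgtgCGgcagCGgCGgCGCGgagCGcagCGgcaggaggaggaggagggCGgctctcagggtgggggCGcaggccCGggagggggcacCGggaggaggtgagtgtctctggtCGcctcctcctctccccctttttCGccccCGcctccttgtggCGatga
Crebbp, chr16:4213405-4213654, minus strand: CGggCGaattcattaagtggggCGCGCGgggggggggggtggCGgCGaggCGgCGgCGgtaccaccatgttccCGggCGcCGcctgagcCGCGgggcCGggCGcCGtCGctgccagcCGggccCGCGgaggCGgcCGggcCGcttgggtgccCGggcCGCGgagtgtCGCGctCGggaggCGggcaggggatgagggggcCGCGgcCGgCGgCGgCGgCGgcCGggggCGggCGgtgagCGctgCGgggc
Fmr1, chrX:68678291-68678540, plus strand: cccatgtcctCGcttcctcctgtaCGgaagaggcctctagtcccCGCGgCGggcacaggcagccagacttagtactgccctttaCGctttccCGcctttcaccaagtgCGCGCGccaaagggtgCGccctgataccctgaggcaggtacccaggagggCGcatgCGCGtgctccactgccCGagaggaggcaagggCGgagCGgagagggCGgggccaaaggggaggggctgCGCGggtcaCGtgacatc
Hdac4, chr1:92180342-92180591, minus strand: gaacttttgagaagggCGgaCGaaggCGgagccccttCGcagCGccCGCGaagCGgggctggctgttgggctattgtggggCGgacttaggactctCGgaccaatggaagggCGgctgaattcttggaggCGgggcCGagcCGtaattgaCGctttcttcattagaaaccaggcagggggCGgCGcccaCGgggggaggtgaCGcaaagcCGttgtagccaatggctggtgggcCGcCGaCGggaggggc
Pak3, chrX:143518341-143518590, plus strand: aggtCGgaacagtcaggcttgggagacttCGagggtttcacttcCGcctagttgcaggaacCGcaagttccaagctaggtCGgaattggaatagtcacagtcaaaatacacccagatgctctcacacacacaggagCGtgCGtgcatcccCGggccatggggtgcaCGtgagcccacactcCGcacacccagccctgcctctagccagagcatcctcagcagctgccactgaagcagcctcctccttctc
Crebbp holds 44 CG dinucleotides in this window, Ep300 25, Hdac4 23, Fmr1 21, Tsc1 16 and Pak3 10. The 23 member windows held a median of 23 (6 to 51), and 21 of them were above 6, the median over all 32851 windows of the table. Across these 23 genes the CG number and the H3K4me3 level per kb moved together (Spearman rho = 0.53, Pearson r = 0.48, a description over genes that share the same libraries). The motif CACGTG, the same on both strands, occurs in 6.02% of all windows and in 2 of the member windows, Fmr1 and Pak3, where it overlaps 1 of the capitalised dinucleotides. At Fmr1 it lies near the end of the window, close to the start site.

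**Figure D1:**
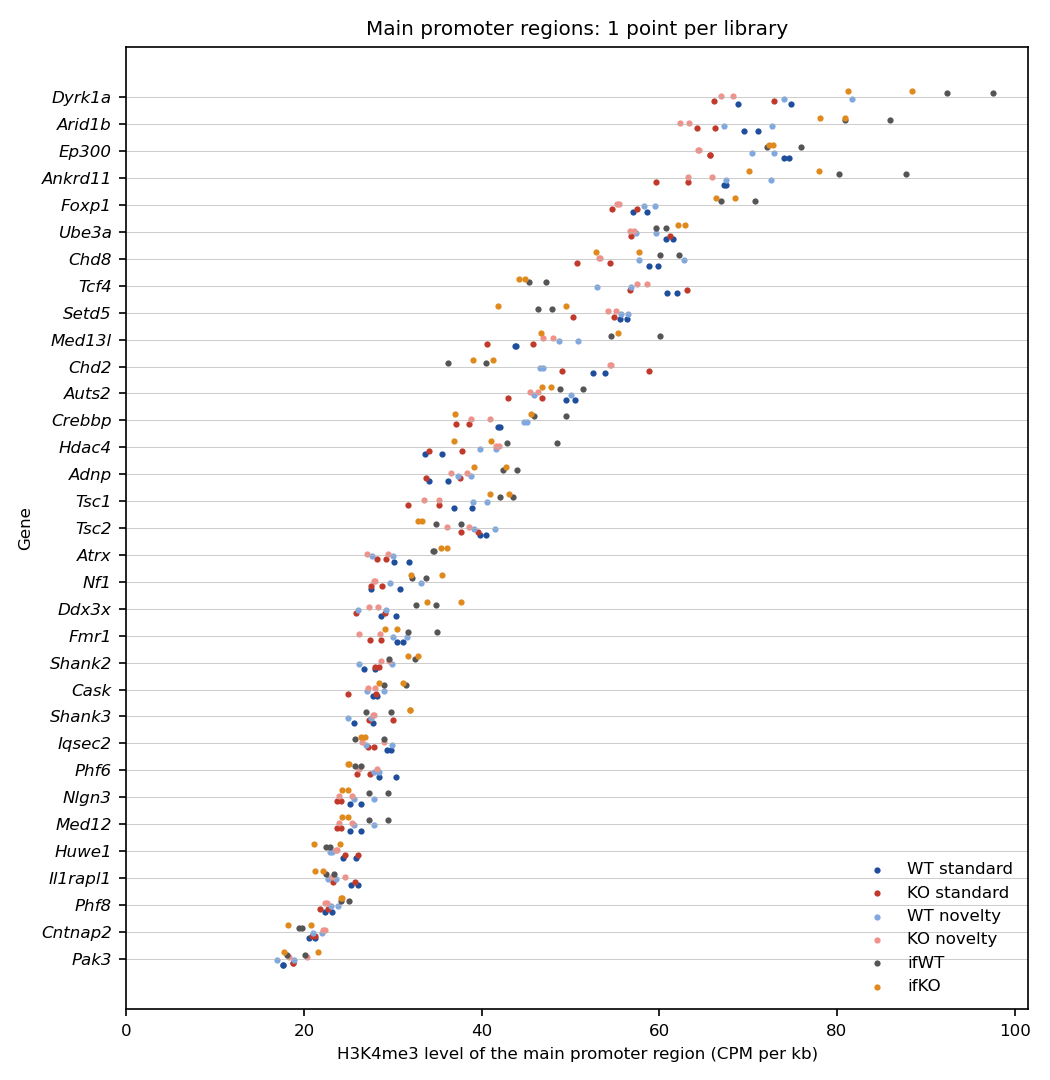
H3K4me3 level (CPM per kb) of the main promoter region of each of the 33 genes, 1 point per library and 1 colour per group. Dyrk1a is highest at 77.8 CPM per kb on the mean of 12 libraries and Pak3 lowest at 18.7, and the 6 groups overlap at most genes.

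The main promoter regions were strong. Their mean level over the 12 libraries had a median of 74.5 CPM, against 54.9 CPM for the main regions of all 13811 protein-coding genes with one and 6.43 CPM for all regions. Their median width was 2087 bp. Of the 26 genes with a start site in the promoter table, 23 had their main region within 2 kb of one. The main region of Chd8 lay at its far end, beside the start of Supt16, a histone chaperone gene. That of Nlgn3 and Med12 lay mostly inside Nlgn3, at the Nlgn3 end that faces Med12, and 24972 bp from the listed Med12 start. The region at that start (chrX:101273568-101275000) had fewer counts, 7019 against 8383. Levels and changes given for Med12 are therefore not those of its own start. The main regions of Ankrd11, Fmr1 and Tsc2 also lay within 2 kb of another gene's start (2810013P06Rik, Fmr1os and Nthl1). The main regions of Shank2 and Tcf4 were inside the gene, 141 and 93 kb from the nearer end. Those of Hdac4 and Shank3 were also inside, 16199 and 5716 bp from the nearer end, but 1 and 196 bp from a listed start. That of Setd5 lay at a gene end but 25938 bp from its listed start.

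Per kb of region, the chromatin regulators held many of the highest levels. Arid1b, a subunit of the BAF remodelling complex, had 71.9 CPM per kb (206 CPM in all), the acetyltransferase Ep300 had 70.5 and Ankrd11, an ankyrin repeat regulator of transcription, had 70.2. Chd8 (57) and Chd2 (47.8), both chromodomain remodellers, Setd5 (52), a SET domain protein, Auts2 (47.7), a partner of Polycomb proteins, and Crebbp (42.3), the paralogue of Ep300, followed. Lower levels per kb were found at the deacetylase Hdac4 (39.6), the zinc finger protein Adnp (38.4), the remodeller Atrx (31.2), the PHD finger protein Phf6 (27.1) and the histone demethylase Phf8 (23.3). The synaptic genes all lay between 20.8 and 29.3 CPM per kb. These are the postsynaptic scaffolds Shank2 (29.3) and Shank3 (28.3), the scaffold Cask (28.4), the Arf exchange factor Iqsec2 (27.9), and the adhesion proteins Nlgn3 (25.7), Il1rapl1 (23.6) and Cntnap2 (20.8).

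Among the transcription factors and Mediator genes, the forkhead factor Foxp1 had 60.7 CPM per kb, the basic helix-loop-helix factor Tcf4 54.2, and the Mediator kinase module genes Med13l and Med12 48.8 and 25.7. The RNA-binding genes stood side by side, with 30.0 CPM per kb at Fmr1, whose product represses translation at synapses, and 30.3 at the RNA helicase gene Ddx3x. Signalling genes spanned the whole range. The kinase gene Dyrk1a was highest with 77.8 CPM per kb, followed by the ubiquitin ligase Ube3a with 59.7. Tsc1 (38.4) and Tsc2 (37.6), whose products restrain mTOR signalling together, hardly differed, and Nf1, a Ras GTPase activating protein, had 30.6. The ubiquitin ligase Huwe1 (23.7) and Pak3 (18.7), a kinase of the actin cytoskeleton, were at the low end. The 11 X-linked main regions had a median of 27.1 CPM per kb (18.7 to 31.2) and the 21 autosomal ones 47.8 (20.8 to 77.8). All mice were male and so had a single X chromosome.

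H3K4me3 was slightly lower in KO at some of these main promoters. On the average over standard conditions and novelty, 9 of 32 fell and 1 rose. These were Arid1b, Chd8, Crebbp, Ep300, Auts2, Ankrd11, Fmr1, Dyrk1a and Tsc1, with log2 changes of -0.11 to -0.20, and Chd2 rose. The share that fell, 28.1%, was near that of the main regions of all protein-coding genes, 30.4% (9.56% rose), and the medians of the log2 change were -0.065 and -0.075. The share in the set was thus close to the background of promoters. With library totals 5 of the 32 fell, and with library offsets fitted to region strength 2 fell, Tsc1 and Chd8. Counted over all tested regions, 18.1% rose and 13.9% fell in this comparison.

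**Figure D2:**
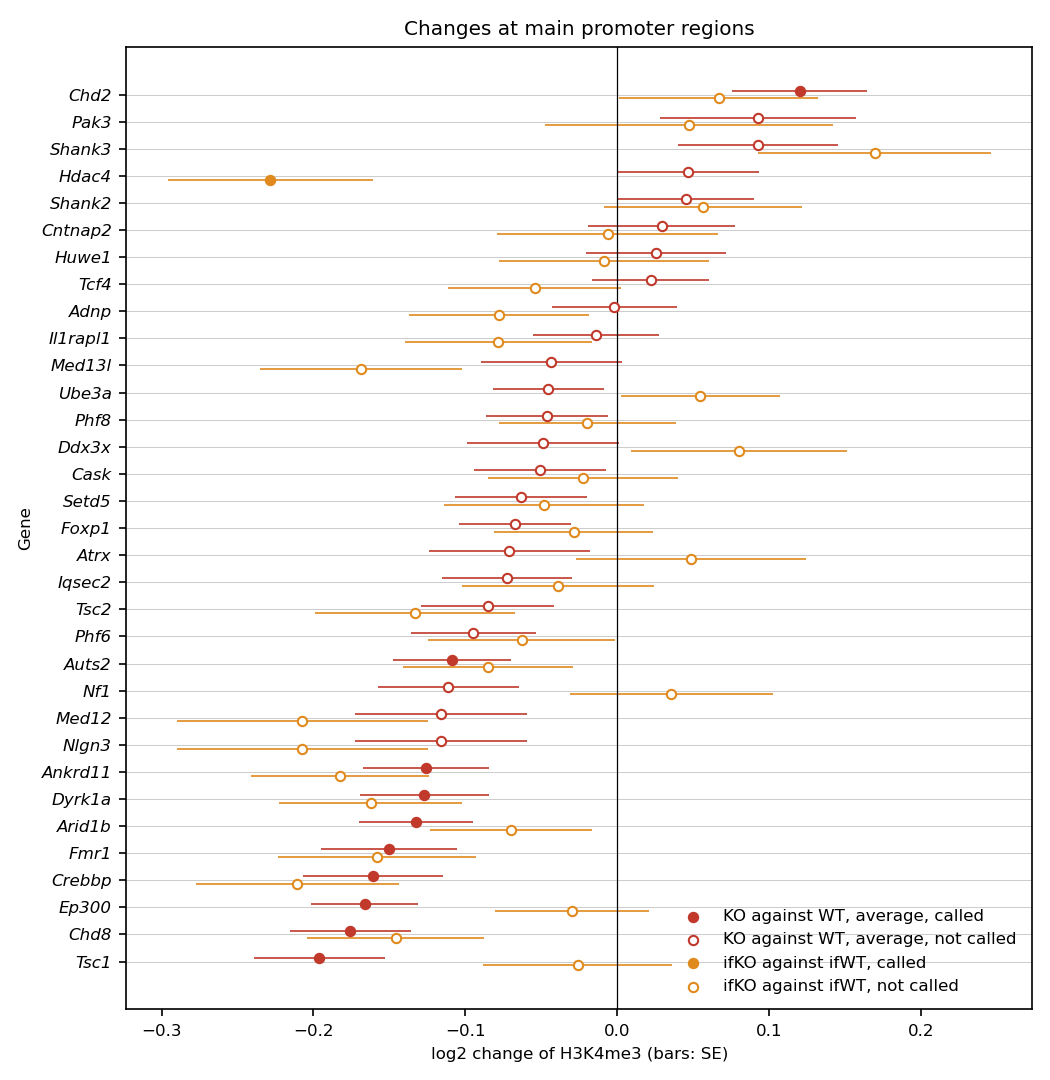
Log2 change of H3K4me3 at the main promoter region of each gene in KO against WT (average over standard conditions and novelty, red) and in ifKO against ifWT (orange), with bars of 1 SE and filled points for regions called in edgeR. From -0.20 at Tsc1 to 0.12 at Chd2, all KO changes are small, and Hdac4 is the only filled orange point.

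Tsc1 fell furthest. Its main region (chr2:28640583-28642271) had 62.3 and 65.7 CPM in WT and 53.5 and 59.5 CPM in KO under standard conditions, and 65.8 and 68.6 CPM in WT and 59.4 and 56.5 CPM in KO after novelty. Every KO library was below every WT library, and the average change was -0.20 ± 0.043 (log2 ± SE, adjusted p = 0.000819 in edgeR), so that the level fell by 12.7%. Its partner Tsc2 did not pass the test (-0.085 ± 0.044, adjusted p = 0.137). In ifKO the Tsc1 region had 73.5 and 71 CPM in ifWT and 72.8 and 69.1 CPM in ifKO, which overlap, and the change was -0.026 ± 0.062 (adjusted p = 0.88).

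The acetyltransferase genes Ep300 and Crebbp, whose products deposit the acetyl marks of active enhancers and promoters, both fell. Ep300 (chr15:81585397-81587914) had 188 and 186 CPM in WT and 165 and 165 CPM in KO under standard conditions, and 177 and 184 CPM in WT and 162 and 162 CPM in KO after novelty. It fell by 0.17 ± 0.035 on the log2 scale (adjusted p = 0.000571 in edgeR), and it fell under standard conditions (adjusted p = 0.0163) and after novelty (adjusted p = 0.0303) when each was tested alone. The Ep300 call under standard conditions was lost with offsets fitted to region strength and without any single library of that condition. The Ep300 call after novelty was lost with library totals, with those offsets, and without the second WT or either KO library of that condition. Crebbp (chr16:4211987-4214042) had 86.5 and 86 CPM in WT and 76.2 and 79.2 CPM in KO under standard conditions, and 92 and 92.8 CPM in WT and 84.2 and 79.7 CPM in KO after novelty. Its average change was -0.16 ± 0.046 (adjusted p = 0.00769), again with no overlap between KO and WT. The region that starts 84 bp beyond it (chr16:4214126-4214781) went the other way, with 15.7 and 15.2 CPM in WT and 17.2 and 18.2 CPM in KO under standard conditions and an average change of 0.22 ± 0.070 (adjusted p = 0.0154). With library offsets fitted to region strength, neither Ep300, Crebbp nor that neighbour was called, and the neighbour was also lost without the second WT or KO library under standard conditions or the first WT library after novelty (adjusted p up to 0.0995 over all settings).

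The remodeller genes moved both ways. The region taken as main for Chd8 (chr14:52196253-52198006), which it shares with the Supt16 start, had 103 and 105 CPM in WT and 88.9 and 95.5 CPM in KO under standard conditions, and 101 and 110.0 CPM in WT and 93.3 and 93.5 CPM in KO after novelty. It fell by 0.18 ± 0.040 on the log2 scale (adjusted p = 0.00112 in edgeR), and the region at the start of Chd8 itself (chr14:52256603-52258546) by 0.11 ± 0.038 (adjusted p = 0.0311). Arid1b (chr17:4994814-4997679), the strongest main region of the set, had 199 and 204 CPM in WT and 184 and 189.8 CPM in KO under standard conditions, and 193 and 208 CPM in WT and 179 and 181 CPM in KO after novelty. The KO libraries were again all below the WT libraries (-0.13 ± 0.037, adjusted p = 0.00709). The Arid1b call was lost under strength-fitted offsets (-0.032, adjusted p = 0.45) and without the second WT library after novelty (adjusted p = 0.0624). Chd2 (chr7:73538051-73541872) was the only main promoter that rose. It had 206 and 201 CPM in WT and 225 and 187 CPM in KO under standard conditions, and 178 and 179 CPM in WT and 208 and 208 CPM in KO after novelty, so the groups overlapped under standard conditions and were apart after novelty, where the change was 0.22 ± 0.063 (adjusted p = 0.013 in edgeR). The Chd2 call after novelty was lost without any single library of that condition, with changes of 0.20 to 0.33 over all settings. The average change of Chd2 was 0.12 ± 0.044 (adjusted p = 0.0369 in edgeR). This average call was lost with relative log expression factors, with DESeq2 and without any 1 of 7 libraries. The smallest change, 0.052, came without the first KO library under standard conditions. The region at the start of Chd8 was lost under scaling by library totals or by strength-fitted offsets, and without any 1 of 6 libraries (adjusted p up to 0.607), whereas the main region of Chd8 was called in all 20 alternative settings.

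Auts2 and Ankrd11 fell by 0.11 ± 0.039 and 0.13 ± 0.041 on the log2 scale (adjusted p = 0.0308 and 0.0192 in edgeR). Auts2 (chr5:132540700-132543625) had 145 and 148 CPM in WT and 126 and 137 CPM in KO under standard conditions, and 134 and 146 CPM in WT and 136 and 133 CPM in KO after novelty, and its groups overlapped. Ankrd11 (chr8:123041398-123043414) had 136 and 136 CPM in WT and 120.2 and 128 CPM in KO under standard conditions, and 136 and 146 CPM in WT and 127 and 133 CPM in KO after novelty, with all KO libraries lowest. Both calls were lost under scaling by library totals or by strength-fitted offsets, where the changes were -0.016 at Auts2 and -0.033 at Ankrd11 (adjusted p = 0.743 and 0.5). Auts2 was also lost without any 1 of 6 libraries (adjusted p up to 0.195) and Ankrd11 without any 1 of 5 (adjusted p up to 0.118). Of the 13 chromatin regulators 6 fell, 1 rose and 6 did not pass the test, where 30.4% and 9.56% of the main regions of all protein-coding genes fell and rose, and the difference between the role groups was not tested. The 6 were Adnp (-0.0017), Phf8 (-0.046), Setd5 (-0.063), Atrx (-0.071), Phf6 (-0.095) and Hdac4 (0.047).

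Fmr1 was the one X-linked main promoter called. Its region (chrX:68678050-68679991) had 60.4 and 59.2 CPM in WT and 53.3 and 55.7 CPM in KO under standard conditions, and 58.2 and 61.3 CPM in WT and 55.5 and 50.9 CPM in KO after novelty. All KO libraries were below all WT libraries, and the change was -0.15 ± 0.045 (adjusted p = 0.0102 in edgeR), so that the level fell by 9.89%. Dyrk1a (chr16:94569620-94571650), a kinase gene of the Down syndrome region in people, had 139.8 and 152 CPM in WT and 134 and 148 CPM in KO under standard conditions, and 150.3 and 166 CPM in WT and 136 and 139 CPM in KO after novelty. Its fall was called after novelty (-0.21 ± 0.060, adjusted p = 0.0159) and on the average (-0.13 ± 0.043, adjusted p = 0.0217), while under standard conditions the change was -0.048 ± 0.060 (adjusted p = 0.653). The average falls of both were lost under scaling by library totals or by strength-fitted offsets (adjusted p up to 0.0926 at Fmr1 and 0.546 at Dyrk1a). That of Fmr1 was also lost without the second WT or the second KO library after novelty (adjusted p = 0.0616 and 0.0732), and that of Dyrk1a without any 1 of 4 libraries (adjusted p up to 0.162).

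None of the 7 synaptic genes was called at its main promoter. Their changes ran from -0.12 at Nlgn3 to 0.093 at Shank3, with SEs of 0.043 to 0.056. None of the 4 transcription factor and Mediator genes was called either, with 0.022 at Tcf4, -0.067 at Foxp1 and -0.043 at Med13l. Among the signalling genes Pak3 (0.093), Huwe1 (0.025), Ube3a (-0.045) and Nf1 (-0.11) did not pass the test. Pak3 had 26 and 26 CPM in WT and 27.6 and 27.7 CPM in KO under standard conditions, and 25.1 and 27.9 CPM in WT and 26.9 and 29.9 CPM in KO after novelty, so its groups overlapped.

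Tested condition by condition, fewer main promoters were called. Under standard conditions 2 of 32 fell (Chd8 and Ep300) and 0 rose, against 8.15% and 5.51% of the main regions of all protein-coding genes, and 9 of the 32 had an unadjusted p under 0.05. After novelty 5 fell (Arid1b, Chd8, Ep300, Dyrk1a and Tsc1) and 1 rose (Chd2), against 13.3% and 5.84%. These calls were sensitive to single libraries. Without the second WT library after novelty, 4 main promoters fell on the average and 0 after novelty. Without the first KO library after novelty 1 fell after novelty, and 0 did without the second.

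Inside the genes most changes went the other way. Regions inside genes, the comparison set here and below, leave out those within 2 kb of the end of any gene. Member internal regions were kept away only from the ends of their own gene, so the 2 sets are not defined alike. Some member internal regions lay at another gene's end, such as the Nf1 region at Omg. Of the 109 tested internal regions, 35 rose in KO on the average and 3 fell, that is 32.1% and 2.75%, against 23.2% and 4.39% of all 10344 regions inside genes. Under standard conditions 13 rose and 1 fell (11.6% and 0.928% of all regions inside genes), and after novelty 19 rose and 2 fell (13.9% and 1.85%). The median log2 change was 0.17, against 0.14 for all regions inside genes. In 33 of the 110 internal regions all 4 KO libraries were above all 4 WT libraries, and in 2 all were below. Over all regions, a set that also holds those at gene ends and between genes, these shares were 17.1% and 13.8%. They were not counted for regions inside genes alone, so the 2 sets are unlike. Internal regions were much weaker than main promoters, with a median of 2.32 CPM, and 64 of 110 were under 3 CPM.

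**Figure D3:**
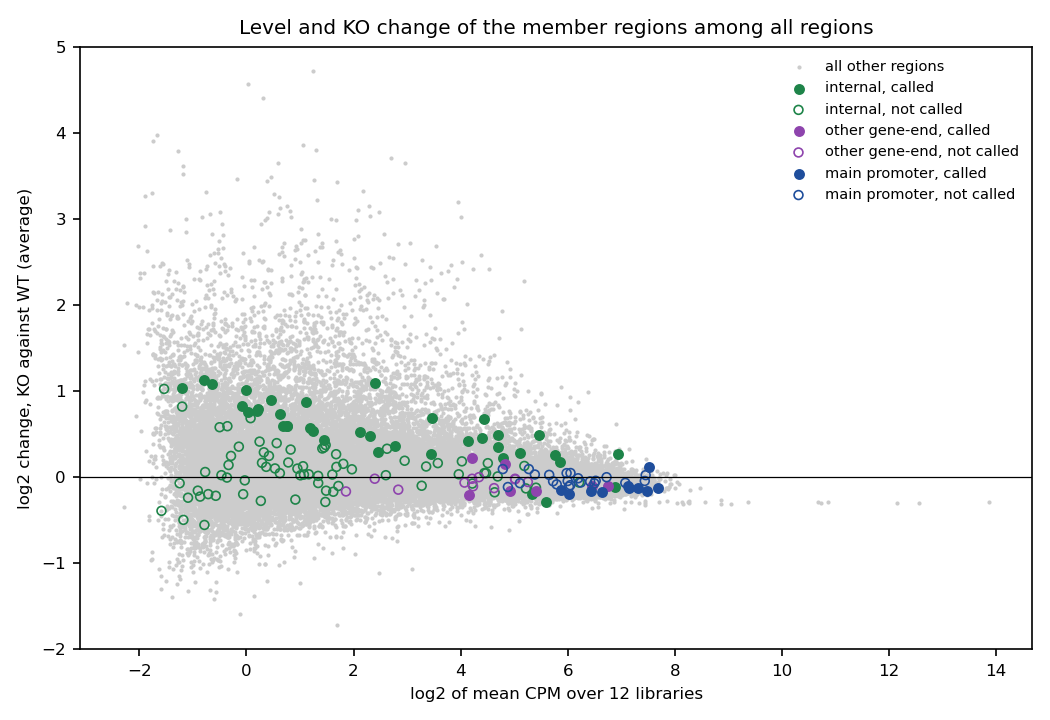
Log2 change in KO against WT (average over both conditions) against the log2 of the mean CPM for all tested regions (grey) and for member regions by class, filled where called in edgeR. Filled internal points (green) lie above 0 except for 3, and filled main promoter points (blue) lie just below 0 except for Chd2.

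The share that rose differed with level and from gene to gene, without a test of either difference. Among the 30 internal regions of at least 10 CPM, 13 rose (43.3%), against 23.0% of the 1984 such regions inside all genes. Most of these 13 lay in Tcf4, so the difference by level was not separate from that by gene. Among weaker ones, 22 of 79 rose (27.8%), against 23.2%. Tcf4 alone held 34 of the internal regions, of which 16 rose and 0 fell, with a median log2 change of 0.30. Without Tcf4, 19 of 75 internal regions rose (25.3%) and 3 fell. The 35 that rose lay in 10 genes, 5 of them in Shank2, 3 each in Arid1b and Auts2 and 2 each in Shank3 and Nf1. Internal regions given by library below, other than the 12 with the largest called changes, were chosen after their values were seen.

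Tcf4, whose haploinsufficiency in people causes Pitt-Hopkins syndrome, is a long gene with several promoters, and its 37 regions spread over most of its length. A group of 3 regions that all rose lay 177 to 181 kb from its lower-coordinate end. Weaker Tcf4 regions with larger log2 changes are given further on. The first (chr18:69519845-69520614) had 17.6 and 18.5 CPM in WT and 26.5 and 24.7 CPM in KO under standard conditions, and 16.5 and 15.2 CPM in WT and 28.2 and 29.1 CPM in KO after novelty. No KO library overlapped a WT library, and the change was 0.68 ± 0.066 (adjusted p = 8.93e-10 in edgeR), a rise by 60%. The middle and strongest of the 3 (chr18:69521036-69524230) had 126 and 124 CPM in WT and 149 and 136 CPM in KO under standard conditions, and 113 and 116 CPM in WT and 150.1 and 141 CPM in KO after novelty. It rose by 0.27 ± 0.045 (adjusted p = 3.33e-05). The last (chr18:69524462-69525251), with 20.2 and 17.9 CPM in WT and 26.9 and 25.2 CPM in KO under standard conditions, and 19.1 and 20.6 CPM in WT and 26.5 and 28 CPM in KO after novelty, rose by 0.45 ± 0.071 (adjusted p = 9.69e-06). The log2 changes of the weaker flanks were larger than that of the centre, a difference that was not tested.

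**Figure D4:**
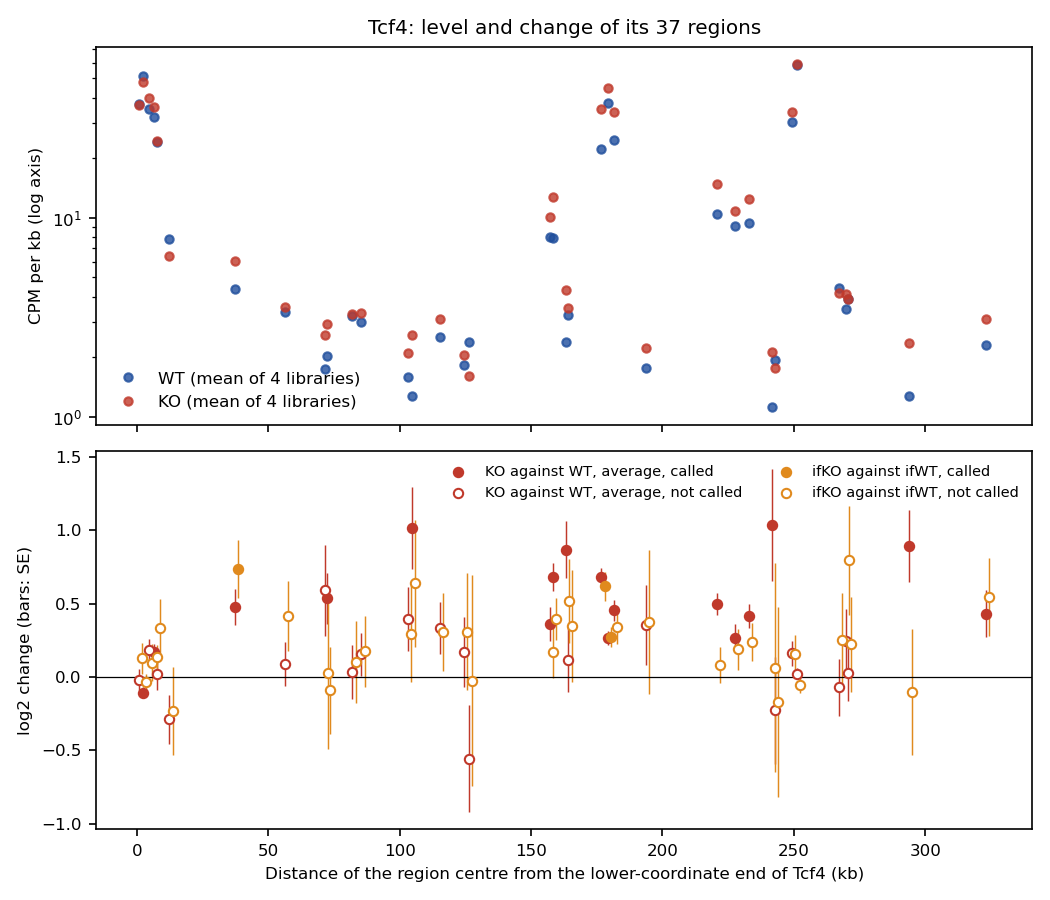
The 37 H3K4me3 regions of Tcf4 by their distance from the lower-coordinate end of the gene (kb). The upper panel gives the mean CPM per kb of 4 WT and 4 KO libraries on a log axis, and the lower panel the log2 change with bars of 1 SE in KO (red) and ifKO (orange), where the KO change is above 0 in 30 of the 34 internal regions.

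Further Tcf4 regions rose around this group. At chr18:69501133-69502245 there were 9.52 and 8.8 CPM in WT and 14.1 and 12.9 CPM in KO under standard conditions, and 8.36 and 8.49 CPM in WT and 15 and 14.4 CPM in KO after novelty, a change of 0.68 ± 0.096 (adjusted p = 1.56e-06 in edgeR). At chr18:69563091-69565406 there were 28.3 and 24.3 CPM in WT and 37.8 and 33.7 CPM in KO under standard conditions, and 24.1 and 20.3 CPM in WT and 34 and 30.6 CPM in KO after novelty, a change of 0.49 ± 0.075 (adjusted p = 4.87e-06). Both regions had every KO library above every WT library. By contrast, the main region of Tcf4 (chr18:69593034-69596270) had 201 and 197 CPM in WT and 204 and 183 CPM in KO under standard conditions, and 172 and 184 CPM in WT and 189.8 and 186 CPM in KO after novelty, which overlap (0.022 ± 0.039, adjusted p = 0.704), and the region at its lower-coordinate end (chr18:69344531-69346649) fell by 0.11 ± 0.037 (adjusted p = 0.024). That fall was lost under scaling by library totals or by strength-fitted offsets, and without any 1 of 6 libraries (adjusted p up to 0.653).

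Shank2 and Shank3, whose products organise the postsynaptic density of excitatory synapses, had the largest called changes of the synaptic genes above 2 CPM, all at internal regions. Shank2 at chr7:144174976-144177453 had 38.3 and 34 CPM in WT and 52.1 and 47.2 CPM in KO under standard conditions, and 38 and 35.2 CPM in WT and 52.3 and 52.7 CPM in KO after novelty. All KO libraries lay above all WT libraries, and the rise was 0.49 ± 0.050 (adjusted p = 2.65e-09 in edgeR), or 40.3%. A second Shank2 region 43 kb away (chr7:144132320-144134042) had 21.8 and 20.2 CPM in WT and 26.3 and 26.5 CPM in KO under standard conditions, and 22.1 and 22.8 CPM in WT and 30.5 and 28 CPM in KO after novelty and rose by 0.35 ± 0.061 (adjusted p = 3.74e-05). The region taken as main for Shank2 (chr7:144283773-144285921), also inside the gene, had 60.1 and 57.4 CPM in WT and 60.1 and 61.1 CPM in KO under standard conditions, and 56.4 and 64.3 CPM in WT and 61.5 and 63.5 CPM in KO after novelty and was not called (0.045 ± 0.045, adjusted p = 0.478).

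Shank3 had the largest change of any member region above 2 CPM. Its region at chr15:89547835-89549336, near the far end of the gene, had 3.91 and 2.64 CPM in WT and 8.38 and 8.0 CPM in KO under standard conditions, and 4.14 and 4.24 CPM in WT and 6.67 and 8.63 CPM in KO after novelty. The KO libraries stood above the WT libraries with no overlap, and the average log2 change was 1.09 ± 0.13, a rise by 113% (adjusted p = 7.13e-08 in edgeR). A second Shank3 region (chr15:89532613-89534447) had 33.5 and 32.4 CPM in WT and 42.3 and 37.9 CPM in KO under standard conditions, and 34.4 and 31.3 CPM in WT and 43.1 and 36.3 CPM in KO after novelty and rose by 0.28 ± 0.058 (adjusted p = 0.000417). The Shank3 main region had 35 and 37.9 CPM in WT and 37.4 and 41 CPM in KO under standard conditions, and 34.1 and 37.7 CPM in WT and 38.1 and 37.9 CPM in KO after novelty, which overlap.

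**Figure D5:**
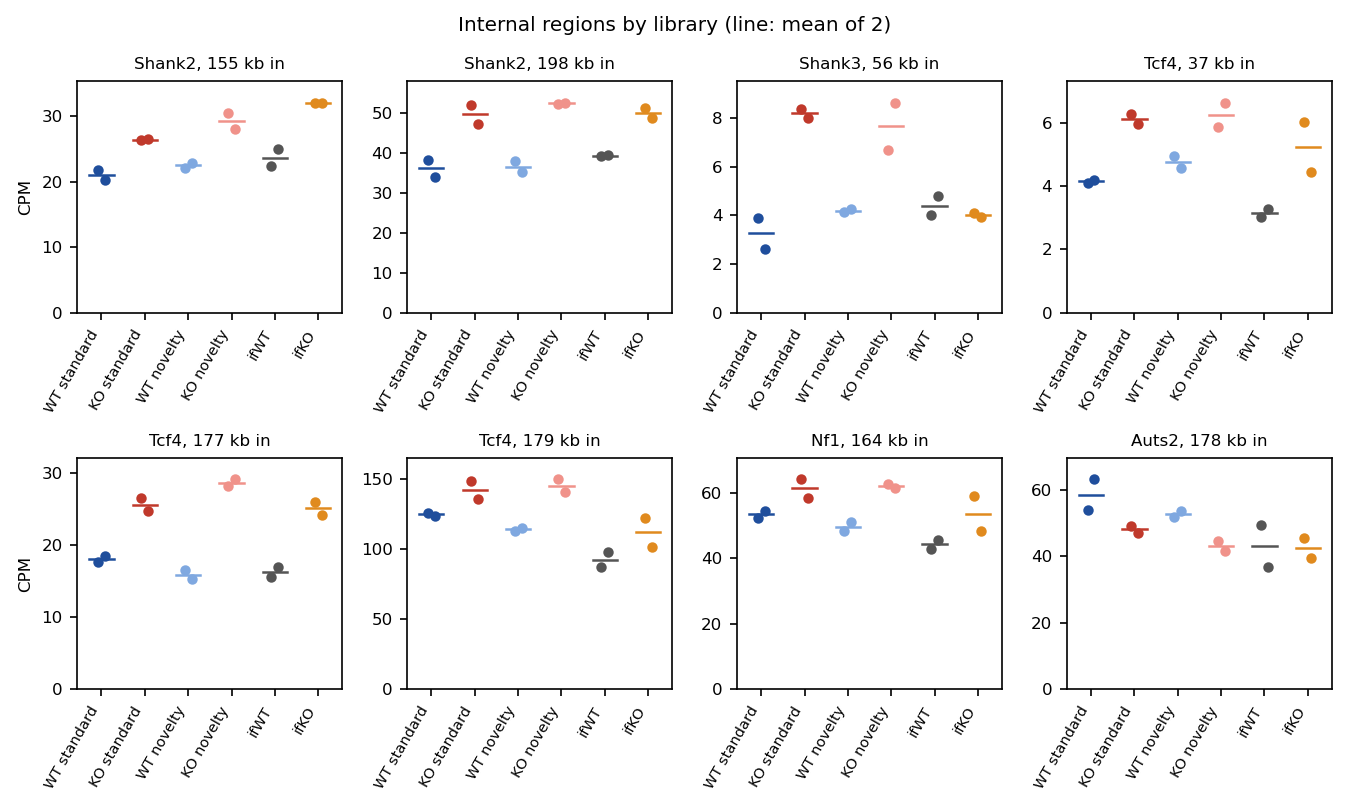
H3K4me3 level (CPM, axes from 0) of 8 internal regions, with 1 point per library and a line at the mean of each pair. The number in each title is the distance of the region from the lower-coordinate end of its gene in kb. KO points are above WT points in 7 panels and below in the Auts2 panel, and ifKO points are above ifWT points in 6 panels but not for Shank3 or Auts2.

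Nf1 rose at an internal region (chr11:79502492-79504479) that sits at Omg, the oligodendrocyte myelin glycoprotein gene nested in Nf1, so the region cannot be assigned to one of them. It had 52.2 and 54.4 CPM in WT and 64.1 and 58.4 CPM in KO under standard conditions, and 48.2 and 51 CPM in WT and 62.5 and 61.3 CPM in KO after novelty. The groups did not overlap, and the change was 0.26 ± 0.050 (adjusted p = 0.000186 in edgeR). A weaker Nf1 region (chr11:79494737-79495852) had 3.95 and 4.29 CPM in WT and 5.63 and 6.46 CPM in KO under standard conditions, and 3.8 and 4.07 CPM in WT and 5.53 and 5.62 CPM in KO after novelty and rose by 0.53 ± 0.12 (adjusted p = 0.00166). At Chd2 the region 263 bp from its main promoter (chr7:73537130-73537788) rose with it, with 26.8 and 26.8 CPM in WT and 32.5 and 29 CPM in KO under standard conditions, and 25.7 and 27.9 CPM in WT and 32.3 and 31.4 CPM in KO after novelty (0.22 ± 0.060, adjusted p = 0.00482).

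On the average over both conditions, 3 internal regions fell. The largest fall of any member region called on that average was in Auts2 (chr5:131613999-131616946), a 2947 bp region with 53.9 and 63.2 CPM in WT and 49 and 47.1 CPM in KO under standard conditions, and 51.7 and 53.7 CPM in WT and 44.4 and 41.5 CPM in KO after novelty. Each KO library was below each WT library, and the change was -0.29 ± 0.062 (adjusted p = 0.000602 in edgeR). Another Auts2 region (chr5:131535370-131538711) fell by 0.11 ± 0.042 (adjusted p = 0.0406), and its call was lost in 8 of the 20 settings. The last, at the Huwe1 start site (chrX:151803257-151804615), had 44.5 and 43.5 CPM in WT and 38.5 and 38.1 CPM in KO under standard conditions, and 41.5 and 45.3 CPM in WT and 38.4 and 37.7 CPM in KO after novelty and fell by 0.20 ± 0.051 (adjusted p = 0.00383). The main Huwe1 region 228 bp away was not called. Another 3 weak Auts2 regions of under 3 CPM rose, so this gene moved both ways. A further internal region, in Cntnap2 (chr6:47191405-47191953), fell after novelty alone, from 2.2 and 1.67 CPM in WT to 1.02 and 0.895 CPM in KO (-0.996 ± 0.31, adjusted p = 0.0254). Under standard conditions it had 1.03 and 1.03 CPM in WT and 1.64 and 1.17 CPM in KO and was not called. The call after novelty was lost with DESeq2 and without any 1 of the 4 libraries of that condition (adjusted p up to 0.164).

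Next to the Shank3 region, the 11 other regions among the 12 with the largest called log2 changes were all under 3 CPM. At Cntnap2 (chr6:45486131-45486499) the level was 0.404 and 0.402 CPM in WT and 1.11 and 0.697 CPM in KO under standard conditions, and 0.506 and 0.383 and 1.33 and 0.529 CPM after novelty (1.13 ± 0.36, adjusted p = 0.0152 in edgeR). Arid1b rose at chr17:5261320-5261797 (1.08), chr17:5139145-5139753 (0.76) and chr17:5285858-5286724 (0.73). The last of these had 0.988 and 1.12 CPM in WT and 2.3 and 2.09 CPM in KO under standard conditions, and 1.44 and 1.46 CPM in WT and 1.78 and 2.08 CPM in KO after novelty. Tcf4 rose at chr18:69584910-69585236 (1.04), chr18:69447776-69448317 (1.01), chr18:69636769-69637657 (0.89) and chr18:69506515-69507166 (0.87). Of these, the last had 1.44 and 1.88 CPM in WT and 3.65 and 2.72 CPM in KO under standard conditions, and 1.52 and 1.32 CPM in WT and 2.67 and 2.24 CPM in KO after novelty, with no overlap. Shank2 rose at chr7:144417829-144418264 (0.83) and chr7:144325297-144326053 (0.79). The Shank2 region at 144417829 lay within 2 kb of the start of Gm34621. Il1rapl1, a synaptic organiser of the interleukin receptor family, rose at chrX:87466459-87466985, where the level was 1.3 and 1.07 CPM in WT and 1.77 and 2.06 CPM in KO under standard conditions (0.77 ± 0.22, adjusted p = 0.00755). Of these 12, 3 were called in all 20 alternative settings (Shank3, Il1rapl1 and Tcf4 at 69506515), and 8 were lost when some single library was left out, with adjusted p up to 0.293 over all settings.

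Of the 159 tested member regions together, 13 rose and 3 fell under standard conditions, 20 rose and 8 fell after novelty, and 38 rose and 17 fell on the average. All regions gave 9.74% and 3.67%, 11.1% and 5.94%, and 18.1% and 13.9%. Single libraries moved these counts. The 16 calls under standard conditions became 9, 3 and 6 without the first WT, the second WT or the first KO library of that condition, and the 28 after novelty became 10, 11 and 13 without the second WT, the first KO or the second KO library. The 55 on the average became 32, 31 and 36 without the second WT library under standard conditions, the second WT or the first KO library after novelty.

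In ifKO, 6 member regions rose and 1 fell, against 4.41% and 0.976% of all regions (5.38% together). The 6 were internal, 5.5% of the tested internal regions, against 5.32% of all regions inside genes. All 6 had also risen in KO on the average. How often this held among all regions that rose in ifKO is not given here. The Tcf4 region at chr18:69519845-69520614 had 15.6 and 17 CPM in ifWT and 26 and 24.1 CPM in ifKO, an increase of 0.62 ± 0.098 (log2 ± SE, adjusted p = 5.01e-05 in edgeR), next to 0.68 in KO. The central region beside it had 87.6 and 97.7 CPM in ifWT and 122 and 102 CPM in ifKO (0.27 ± 0.068, adjusted p = 0.0113), and a weak region 37 kb from the lower-coordinate end (chr18:69380258-69381280) had 3.04 and 3.26 CPM in ifWT and 6.02 and 4.44 CPM in ifKO (0.73 ± 0.20, adjusted p = 0.0225). Shank2 at chr7:144132320-144134042 had 22.4 and 25 CPM in ifWT and 32 and 32.1 CPM in ifKO (0.43 ± 0.088, adjusted p = 0.00141). At chr7:144174976-144177453 it had 39.2 and 39.4 CPM in ifWT and 51.4 and 48.8 CPM in ifKO (0.35 ± 0.073, adjusted p = 0.00201). The Nf1 region at Omg had 42.9 and 45.5 CPM in ifWT and 58.8 and 48.2 CPM in ifKO (0.28 ± 0.076, adjusted p = 0.0241). In none of the 6 did the ifKO and ifWT libraries overlap. Without the first ifWT or the first ifKO library 3 member regions were called, and 12 without the second ifKO library. Leaving out either the first ifWT or the first ifKO library ended the calls of the central Tcf4 region (log2 change down to 0.14, adjusted p up to 0.476), of the Nf1 region (down to 0.12, adjusted p up to 0.605) and of the weak Tcf4 region (adjusted p up to 0.415), which was also lost without the second ifWT library. The Shank2 region at chr7:144132320-144134042 was lost without the first ifWT library (adjusted p = 0.0581). The other 2 were called in all 20 settings.

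Hdac4, a class IIa histone deacetylase that shuttles between nucleus and cytoplasm, was the 1 main promoter of 32 called in ifKO, where it fell (2.22% of the main regions of all protein-coding genes fell and 2.56% rose). Its region (chr1:92178666-92180340) had 81.2 and 71.7 CPM in ifWT and 61.8 and 68.6 CPM in ifKO, a change of -0.23 ± 0.068 (adjusted p = 0.0398 in edgeR). In KO it was not called, with 56.2 and 59.6 CPM in WT and 57 and 63.3 CPM in KO under standard conditions, and 69.7 and 66.6 CPM in WT and 69.6 and 70.2 CPM in KO after novelty (0.047 ± 0.047, adjusted p = 0.477). The call was lost in 10 of 20 alternative settings, among them the fit without the first library of ifWT or of ifKO. The 2 knockout comparisons share no library. Their changes had the same sign at 24 of 32 main promoters (75.0%) and at 79 of the 109 tested internal regions, with 68.8% over all regions.

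The difference between the effects of KO under standard conditions and of ifKO was itself tested, and 1 member region was called, against 0.701% of all regions (0.651% in that direction). It was the Shank3 region at chr15:89547835-89549336, which had 4.02 and 4.78 CPM in ifWT and 4.11 and 3.93 CPM in ifKO. Its change in ifKO was -0.13 ± 0.21, and the difference from the KO effect was 1.45 ± 0.28 (adjusted p = 0.0061 in edgeR). The call was lost without the second WT library under standard conditions and without the second ifWT library, where the adjusted p reached 0.11 at most.

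No member region was called for novelty. In WT, in KO and in the interaction of genotype and novelty, 0 of 159 member regions passed the test, while 12, 6 and 7 had an unadjusted p under 0.05 in edgeR. Over all regions 0.00556%, 0.0% and 0.0% were called (0.00724% of the main regions of all protein-coding genes in WT), and DESeq2 and limma-voom called 0 member regions as well. The largest novelty change at a main promoter was at Hdac4, with 56.2 and 59.6 CPM under standard conditions and 69.7 and 66.6 CPM after novelty in WT (0.24 ± 0.067, adjusted p = 0.496). In KO it was 57 and 63.3 and 69.6 and 70.2 CPM (0.21 ± 0.065, adjusted p = 1).

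Few members overlapped the 2321 regions of the Kdm5C and H3K4me1 files. The overlap covered 7 of 160 member regions (4.38%, against 6.43% of all regions) and 5 of 32 main promoters (15.6%, against 14.1% of the main regions of all protein-coding genes). The values of these files behave as covered bases, about 50 per read, and with 1 library per genotype no test was made. Over the file the median was 1346 covered bases in WT and 281 in KO. The Chd8 main region beside Supt16 had 1836 in WT and 50 in KO, Ube3a 1628 and 374, Adnp 1459 and 223, Tsc2 959 and 50, and Phf6 481 and 0. The Nf1 region at Omg had 1662 and 669, and the start region of Chd8 353 and 200. Of these 7, the Chd8 regions fell in KO and the Nf1 region rose on the average, while Ube3a, Adnp, Tsc2 and Phf6 were not called. None of the Shank2, Shank3 or Tcf4 regions overlapped the file.

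Being X-linked itself, Kdm5c has neighbours in the set. Iqsec2 ends 7.961 kb from it, Huwe1 lies 297.8 kb away and Phf8 599.3 kb away. The Iqsec2 main region (chrX:152144214-152147452) had 95.1 and 96.4 CPM in WT and 90.1 and 88.1 CPM in KO under standard conditions, and 87.2 and 97 CPM in WT and 85.7 and 93.9 CPM in KO after novelty (-0.072 ± 0.043, adjusted p = 0.204 in edgeR), so the groups overlapped. Of the 11 X-linked main regions 0 rose and 1 fell, Fmr1, where 9.56% and 30.4% of the main regions of all protein-coding genes rose and fell. Ddx3x fell at a region 236 bp from its main promoter (chrX:13281978-13283290, -0.16 ± 0.061, adjusted p = 0.0468), while its main region did not pass the test. The Ddx3x call was lost in 10 of 20 settings, among them library totals, DESeq2 and the fits without any 1 of 7 libraries (adjusted p up to 0.182).

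A further 55 genes known for intellectual disability or autism, listed for comparison, were counted at their main promoters. On the average over both conditions 21 fell (38.2%) and 1 rose, with a median log2 change of -0.098. Of the main regions of all protein-coding genes, 30.4% fell and 9.56% rose, with a median of -0.075, and the difference was not tested. The 1 of the 55 that rose was Nsd1, an H3K36 methyltransferase gene whose loss causes Sotos syndrome in people. Its main region (chr13:55209845-55211537) had 36.9 ± 2.46 CPM in WT and 77.2 ± 3.52 in KO under standard conditions (mean ± SD, n = 2), 38.5 ± 1.42 and 78.5 ± 1.11 after novelty, and 44.7 ± 0.046 in ifWT against 77.4 ± 3.88 in ifKO. The log2 change was 1.05 ± 0.045 in KO and 0.79 ± 0.064 in ifKO (adjusted p = 2.42e-18 and 1.46e-10 in edgeR), larger than at any of the 32 main promoters of the set. Cul3, a ubiquitin ligase scaffold, and Arid1a, a BAF subunit, fell by 0.23 and 0.21. In ifKO 2 of the 55 rose and 0 fell, where 2.56% and 2.22% of the main regions of all protein-coding genes rose and fell.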

How the data were processed

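Per the file headers, each deposited H3K4me3 file is a table of raw read counts over 36005 regions common to all libraries, of which 9 repeats were removed. The deposited Kdm5C and H3K4me1 files hold a signal per region, which the headers call raw counts but which behaves as summed base coverage. The submitters' processing notes list MACS2 2.1.0, Bowtie2 2.2.9, R 3.3, DESeq2 1.10.0 and SAMtools 1.3.1, with mm10 as the build. Those notes do not say how the regions were set.

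One edgeR model (version 4.0.16, R 4.3.3) covered the 12 H3K4me3 libraries with 1 mean per group, TMM factors, filterByExpr and quasi-likelihood F tests, with Benjamini-Hochberg adjustment at 0.05. SEs were derived from F. The code was checked on simulated counts. With 2 libraries a group no permutation test of 1 region could pass, and the tests borrow their spread across groups and regions. Genes came from RefSeq tables, in which 7 of the 33 genes have no listed start or strand. The members, the role lists and the comparison list of 55 genes were chosen with earlier results of these data known. All 33 genes are named; libraries are given for called main promoters and for up to 12 other called regions of largest change, and other regions so described were chosen after their values were seen. Kdm5C overlap needed 1 bp. Counting precision covers counting error only.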

Additional observations from a re-analysis of the deposited data

Results flagged for a closer look

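The internal Shank3 region at chr15:89547835-89549336 was the one member result that differed between the 2 knockout lines by a test of the difference itself. The KO effect under standard conditions exceeded the ifKO effect by 1.45 on the log2 scale (SE 0.28, adjusted p = 0.0061 in edgeR's quasi-likelihood test). KO libraries were higher than WT libraries in 2 of 2 under standard conditions and in 2 of 2 after novelty, and ifKO libraries overlapped ifWT libraries. The KO cohort was on a mixed background and the ifKO cohort on C57BL/6J, and these cannot be told apart from the mutation. The adjusted p rose to 0.11 without the second WT library under standard conditions and to 0.0601 without the second ifWT library, and it stayed under 0.05 in the other 17 alternatives.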

How the results depend on the processing

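Across the alternatives, no member result reversed its direction. Of the calls in member regions, 20 of 55 on the KO average, 3 of 16 under standard conditions, 9 of 28 after novelty, 2 of 7 in ifKO and 0 of 1 for the difference of effects held in every setting. Library offsets fitted to region strength took main promoter falls to 2 on the average, and to 0 under standard conditions, after novelty and in ifKO. With them, member calls were 34 on the average and 18 after novelty, and internal rises 20 and 12. DESeq2 called 36, 18 and 10 member regions on the average, after novelty and under standard conditions, with 19, 11 and 7 internal rises, and 0 main promoter falls in ifKO. Library totals left 5, 2 and 1 main promoter falls, while relative log expression factors gave 8 after novelty and 4 under standard conditions, as did fits of only the compared groups, which gave 0 in ifKO. The causes were not tested.

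With 1 library left out at a time, member calls ranged from 31 to 60 on the average, 10 to 34 after novelty, 3 to 21 under standard conditions, 3 to 12 in ifKO, 0 to 2 for the difference and 0 to 0 for novelty and the interaction. Main promoter falls ranged from 4 to 10, 0 to 7, 0 to 4 and 0 to 5, and internal rises from 23 to 37, 9 to 22, 3 to 15 and 3 to 7, in the same order. Where this left 1 library in a group, it was assumed to vary like the others. Requiring 50% of a region to be covered left 0 member regions in overlap with the Kdm5C file instead of 7. Distances of 0 and 5 kb gave 154 and 162 member regions.

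Replicate numbers are shared between groups only as numbers. Deviations of same-numbered libraries correlated between -0.0985 and 0.0595, so they were not treated as pairs. With the replicate number as a block, 54 member regions were called on the average, with 9 main promoter falls and 36 internal rises.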
